A study of Mus musculus with 35 samples.

Results

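The LIM homeobox genes Lhx1, Lhx2, Lhx3, Lhx4, Lhx5, Lhx6, Lhx8, Lhx9, Isl1 and Isl2 were compared between tissues of the mouse embryo. These 10 genes were taken by symbol from the 30723 gene symbols of the deposited tables, and all 10 were found. RNA came from wild-type CD1 embryos at embryonic day 11.5, with no treatment in any group. The 35 libraries covered the frontonasal prominence (FNP, 6 libraries), maxillary prominence (MXP, 5), mandibular prominence (MNP, 6), limb (6), dorsal brain (dB, 6) and ventral brain (vB, 6). The prominences are the outgrowths from which the face forms. Each library was made from polyA RNA of tissue pooled over several embryos, so that differences between single embryos cannot be seen. MXP replicate 4 was not analysed here.

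LIM homeobox factors carry a pair of zinc-binding LIM domains beside a DNA-binding homeodomain. The LIM domains bind the cofactors Ldb1 and Ldb2, which hold several such factors together on DNA. The family is known for assigning neuron types in the brain and spinal cord, for outgrowth and dorsal identity of the limb, and for the mesenchyme of the jaws and palate. Most members exist as close paralogues, so the genes are described below in the pairs Lhx1 and Lhx5, Lhx2 and Lhx9, Lhx6 and Lhx8, Isl1 and Isl2, and Lhx3 and Lhx4.

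Values are FPKM, fragments scaled to transcript length and to the mapped fragments of the library, summed over the transcripts of a gene. This unit corrects for transcript length, so that levels of different genes may be set side by side. In bulk tissue, fewer cells of a type and less RNA per cell cannot be told apart. Tests were made in limma on log2(FPKM + 1), a scale that understates the fold change of genes with few FPKM. The test covered 13934 genes, those whose mean reached 1 FPKM in any of the tissues. A gene was called between a pair of tissues where its p, adjusted by the Benjamini-Hochberg method, was under 0.05 and its fold was 2 or more.

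Neural progenitor genes (Sox1, Sox2, Pax6, Hes5, Nes and Fabp7) summed to between 567 and 800 FPKM in dB and vB. The limb factors Tbx4 and Tbx5 averaged 21.3 and 18.7 FPKM in limb. They come from a limb list of 3 genes, and its other gene is not reported here. The sample labels name the brain tissues as neural tube. None of the 6 hindbrain and spinal cord Hox genes listed reached a mean of 1 FPKM in dB or vB. Some libraries stood apart. In vB, 6 mesenchyme genes (Prrx1, Prrx2, Twist1, Pdgfra, Col1a1 and Col3a1), all 6 averaging 1 FPKM or more in vB, summed to 141, 142 and 258 FPKM in replicates 1, 4 and 5. They summed to 38.7, 17.3 and 5.23 FPKM in replicates 2, 3 and 6, and to between 134 and 268 FPKM in dB. The ventral forebrain genes Nkx2-1, Gsx1, Gsx2, Dlx1, Dlx2, Gad1, Gad2 and Six3 summed to 24.9 FPKM in vB replicate 4 and to between 124 and 338 FPKM in the other vB libraries. In FNP, the neural progenitor genes summed to 167 and 128 FPKM in replicates 4 and 5, against 35.1 to 50.6 FPKM in the other 4. Values without these 5 libraries are given beside each member call that was gained or lost without them, and beside some others. Calls of vB or FNP printed without such a value may also have moved. The part of these tissue mixtures in any result was not tested.

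Of the 10 members, 8 passed the filter on low values, and each of the 8 was called in at least 1 of the 15 tissue pairs. Over all genes tested, 21.3% were called in at least 1 pair. Lhx3 and Lhx4 did not reach a mean of 1 FPKM in any tissue and were not tested. Lhx2, Lhx8 and Lhx9 were called in 12 pairs each, Lhx6 in 10, Lhx1 and Lhx5 in 8 each, Isl2 in 7 and Isl1 in 5. In all, 74 of 120 comparisons were called, where 1.03% to 13.6% of all genes were called in a single pair. The median log2 difference of the 8 members ran from -0.42 for dB against vB to 2.62 for vB against MXP, whereas the median over all genes tested was no farther than 0.06 from 0 in any pair. The plot by library shows the levels behind these calls.

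**Figure D1:**
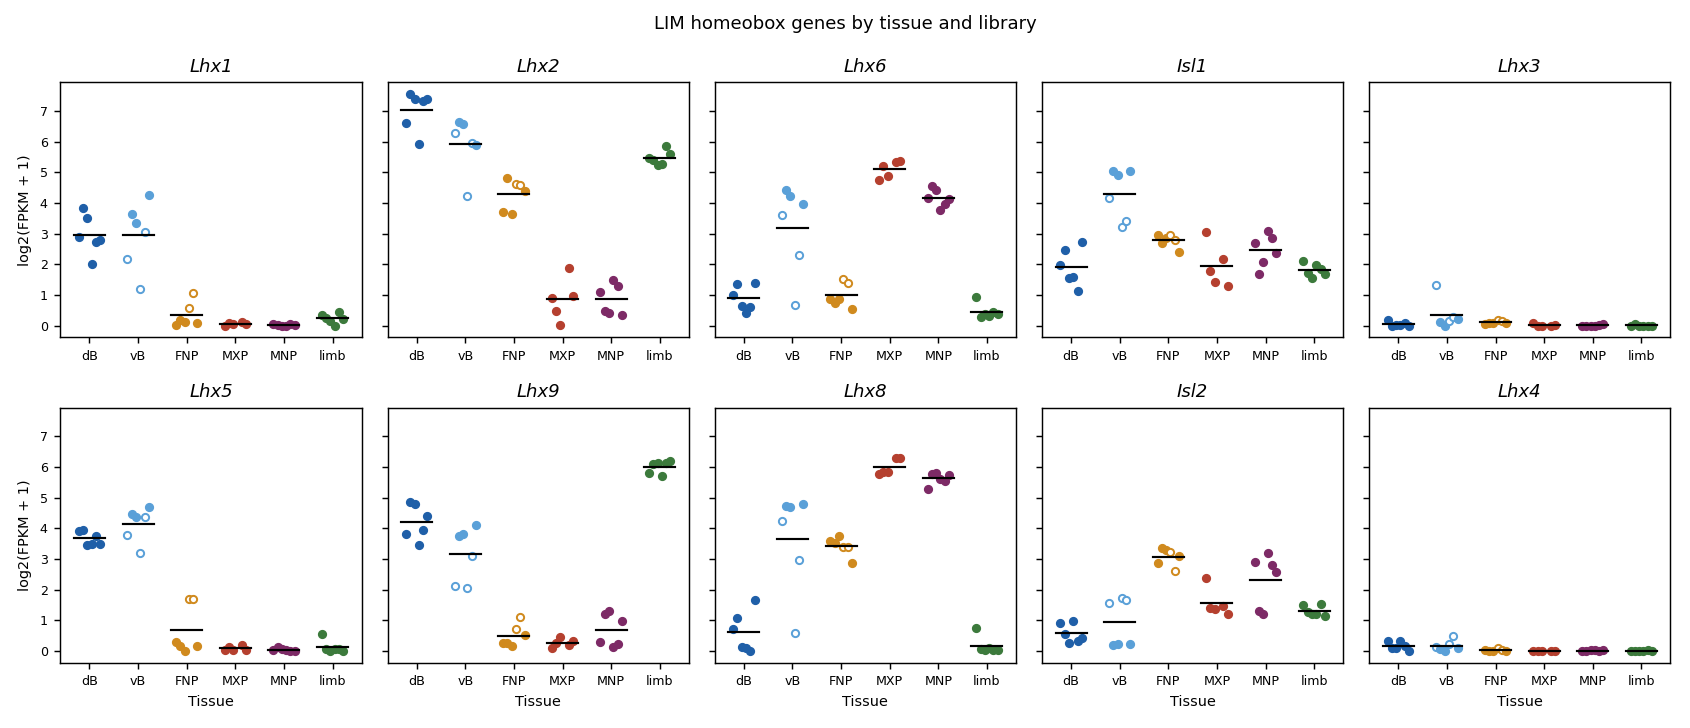
Level of each LIM homeobox gene as log2(FPKM + 1) on a shared axis, by tissue, with 1 point per library and a bar at the mean of the log2 values. Open points are the 5 libraries that stand apart (vB replicates 1, 4 and 5, FNP replicates 4 and 5). Lhx1 and Lhx5 lie high only in dB and vB, Lhx9 is highest in limb, Lhx6 and Lhx8 are highest in MXP and MNP, and Lhx3 and Lhx4 lie near 0 throughout.

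Within the brain, 4 of the 8 members tested were called between dB and vB, against 1.39% of all genes. Lhx9 was higher in dB, and Lhx6, Lhx8 and Isl1 were higher in vB. Between dB and the facial prominences, 6 members were called against FNP (9.62% of all genes), 6 against MXP (11.0%) and 7 against MNP (11.3%). In each of these comparisons Lhx1, Lhx2, Lhx5 and Lhx9 were the members higher in dB. Against limb, 4 members were called in dB (11.7% of all genes), with Lhx9 as the only one lower in dB. In vB, 7 members were called against FNP (12.1% of all genes), 7 against MXP (13.6%), 7 against MNP (13.4%) and 6 against limb (13.6%). Of the 7 called against FNP, 6 were higher in vB and Isl2 was lower.

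Among the facial prominences, 4 members were called between FNP and MXP (2.28% of all genes). Lhx2 and Isl2 were higher in FNP, and Lhx6 and Lhx8 were higher in MXP. Between FNP and MNP, 3 members were called (2.68% of all genes), with Lhx2 higher in FNP and Lhx6 and Lhx8 higher in MNP. No member was called between MXP and MNP in limma, where 1.03% of all genes were called. At an unadjusted p under 0.05, 2 of the 8 differed between MXP and MNP, and the largest difference of any member was 0.95 on the log2 scale. Against limb, 4 members were called in FNP (4.21% of all genes), 4 in MXP (3.34%) and 5 in MNP (2.71%). Lhx8 was higher than in limb in each of the 3 prominences, and Lhx2 and Lhx9 were higher in limb than in each of them.

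Lhx1 and Lhx5, which act in early forebrain and head patterning and later in neurons, were genes of neural tissue. Lhx1 lies on the minus strand at chr11:84519379-84525534 of mm10, and Lhx5 on the plus strand at chr5:120431886-120441457. The lowest, median and highest Lhx1 levels were 3.07, 6.11 and 13.1 FPKM in dB, and 1.30, 8.28 and 18.0 FPKM in vB. In FNP they were 0.0238, 0.118 and 1.07 FPKM. The 5 MXP libraries held 0, 0.0717, 0.0399, 0.0849 and 0.0412 FPKM, MNP no more than 0.0390 and limb no more than 0.357 FPKM. No library of the other tissues reached the lowest dB or vB library. The log2 difference of dB was 2.61 ± 0.31 (SE, adjusted p = 2.43e-08 in limma) against FNP and 2.72 ± 0.31 (adjusted p = 7.03e-09) against limb. Between dB and vB it was 0.01 ± 0.31 (adjusted p = 1), with overlapping ranges, and without the 5 libraries it was -0.79 (adjusted p = 0.00851), under the fold of 2.

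Lhx5 followed the same order at higher levels. Its lowest, median and highest values were 9.88, 11.4 and 14.3 FPKM in dB and 8.21, 19.7 and 25.1 FPKM in vB. The difference between dB and vB was -0.48 ± 0.24 on the log2 scale (adjusted p = 0.308 in limma). The lowest vB library was replicate 4, and without the 5 libraries the difference was -0.85 (adjusted p = 3.41e-06), still under the fold of 2. In MXP the libraries held 0.0323, 0.0869, 0.0187, 0.148 and 0.0202 FPKM, and no MNP library held more than 0.0948 FPKM. In FNP the values fell apart by library. Lhx5 stood at 2.23 and 2.28 FPKM in replicates 4 and 5, the libraries with more neural progenitor RNA, and at 0 to 0.228 FPKM in the other 4. Lhx1 was likewise highest in these FNP libraries, at 0.484 and 1.07 FPKM. Lhx5 exceeded Lhx1 by a ratio of 1.93 ± 0.87 (SD, n = 6) in dB and 3.00 ± 1.80 (SD, n = 6) in vB. The balance of the pair, log2(FPKM + 1) of Lhx1 minus that of Lhx5, did not differ between dB and vB beyond the spread of libraries (difference 0.49, exact permutation test, two-sided, adjusted p = 0.192). The vB ratio was 1.80 ± 0.38 (SD, n = 3) without the 5 libraries, and the difference in balance 0.06 (exact permutation adjusted p = 0.893).

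A second transcript lies beside Lhx1. The noncoding gene 1500016L03Rik occupies chr11:84525660-84535831, and 125 bases separate it from the 5′ end of Lhx1. Its mean level was 6.97 ± 3.25 FPKM (SD, n = 6) in dB and 8.01 ± 5.65 FPKM in vB, against 7.39 ± 3.67 and 8.47 ± 5.97 FPKM for Lhx1. In the other tissues its highest library held 0.503 FPKM, in FNP. Over the 35 libraries, Pearson's r of the log2 values of this gene with Lhx1 was 0.96. As a description over the same libraries, which share tissue and depth, the genes closest to Lhx1 were Scrt2 (r = 0.986), Slc1a2 (0.986) and Scrt1 (0.985). Those closest to Lhx5 were Ptprn2 (0.994), AK045142 (0.991) and Gsx1 (0.989).

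Lhx2 had the highest mean of any member, 139 ± 49.9 FPKM in dB (SD, n = 6), and the largest difference, 6.17 ± 0.33 on the log2 scale for dB against MNP (adjusted p = 2.37e-16 in limma). Lhx2 is needed for eye and cortex formation, and Lhx2 and Lhx9 act together in limb outgrowth. Lhx2 lies on the plus strand at chr2:38339281-38369728, and Lhx9 on the minus strand at chr1:138825186-138847579. The lowest, median and highest levels of Lhx2 were 59.6, 163 and 187 FPKM in dB and 17.6, 68.9 and 99.0 FPKM in vB. They were 36.7, 41.9 and 57.1 FPKM in limb and 11.4, 21.5 and 27.2 FPKM in FNP. MXP libraries held 0.886, 0.409, 0.0268, 2.71 and 0.959 FPKM, and MNP libraries 0.288 to 1.84 FPKM. The brain genes Nkx2-1 and Otx2, chosen after their values were seen, stood at 7.92 and 2.49 FPKM in MXP replicate 5, the highest of these. In the other MXP libraries they held at most 0.161 and 0.246 FPKM, whereas Pax6 was not highest in replicate 5. Their part in the Lhx2 level was not tested. Lhx2 thus divided the face, with FNP above both jaw prominences in every library. The difference was 3.43 ± 0.35 between FNP and MXP (SE, adjusted p = 1.41e-08 in limma) and 3.43 ± 0.33 between FNP and MNP (adjusted p = 2.68e-09).

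In the order of tissues by mean, dB stood next to vB and vB next to limb, and neither step was called, whereas dB against limb was (1.56 ± 0.33, adjusted p = 0.000302 in limma). The dB against vB difference in Lhx2 was 1.1 ± 0.33 (adjusted p = 0.0517 in limma) with overlapping ranges. It was called with the replicate block (adjusted p = 0.0255), with adjustment over the 15 contrasts together (0.0132) and without MXP replicate 3 (0.0465) or 5 (0.0399), and it was 0.66 (adjusted p = 0.187) without the 5 libraries. That of vB against limb was 0.46 ± 0.33 (adjusted p = 0.283). It was called within replicates 1 to 3 (1.15, adjusted p = 0.00869) and was 0.91 (adjusted p = 0.0319), under the fold of 2, without the 5 libraries. Limb stood above FNP (FNP against limb -1.17 ± 0.33, adjusted p = 0.0143), with no overlap between libraries. That call was lost at a pseudocount of 0.1 (adjusted p = 0.114), after rescaling over transcripts of at least 200 bases (0.0645), and within replicates 4 to 6 (0.431). Within replicates 4 to 6, 2 further Lhx2 calls missed the threshold, namely dB against limb (1.30, adjusted p = 0.0926) and vB against FNP (0.82, adjusted p = 0.247). The genes closest to Lhx2 over the libraries were Zic2 (r = 0.946), Mapk12 (0.920) and Cxxc5 (0.917).

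Lhx9 changed rank with Lhx2 in limb. Its lowest, median and highest levels were 51.0, 67.8 and 71.6 FPKM in limb, 9.96, 17.1 and 27.7 FPKM in dB and 3.14, 9.98 and 16.0 FPKM in vB. In FNP no library exceeded 1.14 FPKM and in MNP none exceeded 1.48 FPKM. The MXP libraries held 0.0833, 0.209, 0.371, 0.144 and 0.253 FPKM. Every limb library was above every library of the other tissues. The log2 difference of dB against limb was -1.81 ± 0.29 (adjusted p = 4.76e-06 in limma), and that of MNP against limb was -5.31 ± 0.29 (adjusted p = 4.70e-16). Lhx9 was called higher in dB than in vB (1.05 ± 0.29, adjusted p = 0.0286), but the ranges overlapped. Without the 5 libraries that difference was 0.31 (adjusted p = 0.397), and it was not called without vB replicate 4 alone (0.83, adjusted p = 0.0585), within replicates 1 to 3 (1.25, adjusted p = 0.105) or within replicates 4 to 6 (0.84, adjusted p = 0.734). The call was also lost at a pseudocount of 0.1 (1.16, adjusted p = 0.188), after rescaling (1.03, adjusted p = 0.0952) and with the sequencing run as a block (0.91, under the fold of 2). The genes closest to Lhx9 were Adamtsl2 (r = 0.916), Sall1 (0.908) and Cbln1 (0.896).

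The ratio of Lhx2 to Lhx9 was 7.68 ± 1.94 (SD, n = 6) in dB and 9.26 ± 6.97 (SD, n = 6) in vB. In limb it was 0.69 ± 0.11 (SD, n = 6), and Lhx9 was the higher gene in all 6 limb libraries. The balance of the pair differed between dB and limb by 3.37 and between vB and limb by 3.31 on the log2(FPKM + 1) scale (exact permutation test, two-sided, adjusted p = 0.00417 for each over the 52 balance tests). It did not differ between dB and vB beyond the spread of libraries (0.06, exact permutation adjusted p = 0.896). The vB ratio was 6.29 ± 2.32 (SD, n = 3) without the 5 libraries, and dB and vB then differed by 0.34 (exact permutation adjusted p = 0.359). FNP held Lhx2 nearly without Lhx9, with a balance of 3.79 ± 0.43 (SD, n = 6), above that of dB (dB against FNP -0.96, exact permutation adjusted p = 0.00417).

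**Figure D2:**
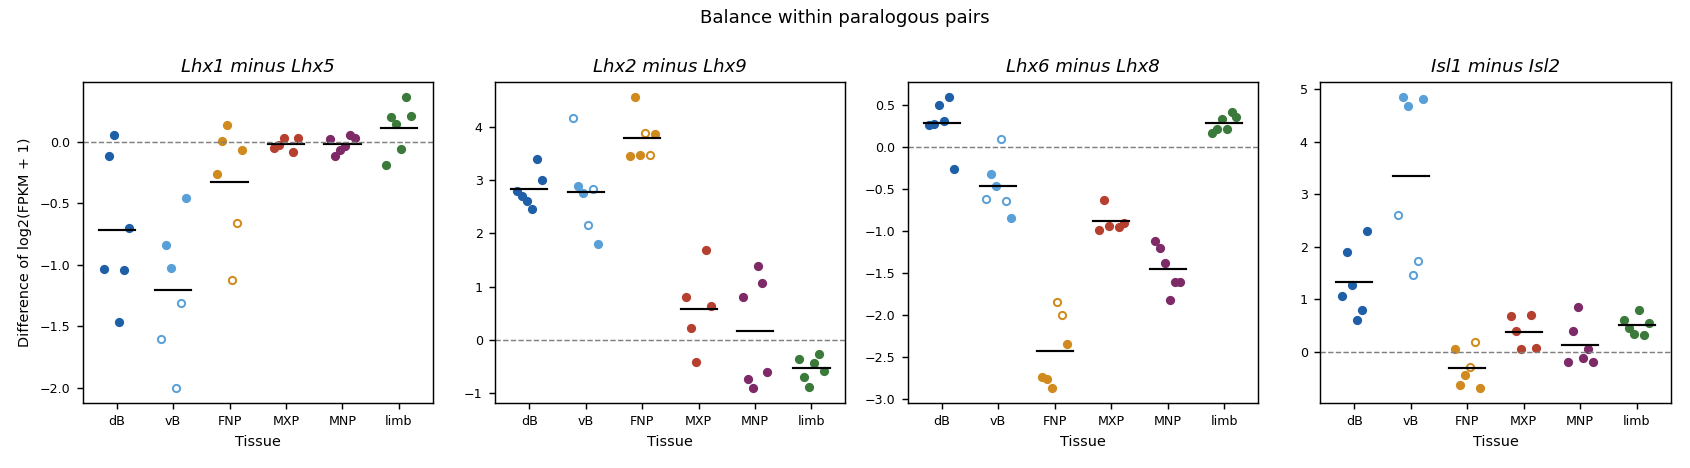
Balance within 4 paralogous pairs, as the difference of log2(FPKM + 1) between the genes named, by tissue, with 1 point per library, a bar at the mean and a dashed line at equal levels. Open points are the 5 libraries that stand apart. The Lhx2 minus Lhx9 balance lies below 0 in all 6 limb libraries, Lhx6 minus Lhx8 is lowest in FNP, and Isl1 minus Isl2 splits the vB libraries into a high and a low set.

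Transcripts of Lhx2 began at a pair of start sites, 12027 bases apart. The share of Lhx2 FPKM from the upstream start separated limb from dB, vB and FNP. It was 22.8% ± 1.49 (SD, n = 6) in dB, with libraries from 21.2% to 25.4%. In vB it was 14.6% ± 4.78 (8.02% to 22.7%), and in FNP it was 19.9% ± 10.8 (6.52% to 35.7%), with the lowest values in replicates 4 and 5. In limb it was 1.61% ± 1.13, with a highest library of 2.74%. No limb library reached the lowest library of dB, vB or FNP. The limb share differed from each of them (exact permutation test, two-sided, adjusted p = 0.00649 each over 9 start tests, which were chosen after the values were seen). The share was higher in dB than in vB (difference 8.14 percentage points, exact permutation adjusted p = 0.0162), with overlapping ranges, and without the 5 libraries this difference was 5.24 points (exact permutation adjusted p = 0.0893). In MNP only 3 libraries held at least 1 FPKM of Lhx2, and their share was no higher than 0.00547%, within the range of limb. MNP was not tested, and MXP, with 1 such library, was not given a share. These shares are Cufflinks estimates and carry no error of their own within a library. The upstream start is shown because it is the start hardly used in limb. The 250 bases before it, chr2:38339031-38339280, come from RefSeq (GRCm38.p6, plus strand, 5′ to 3′), and capitals mark GGGCGG on either strand.
Lhx2 upstream start: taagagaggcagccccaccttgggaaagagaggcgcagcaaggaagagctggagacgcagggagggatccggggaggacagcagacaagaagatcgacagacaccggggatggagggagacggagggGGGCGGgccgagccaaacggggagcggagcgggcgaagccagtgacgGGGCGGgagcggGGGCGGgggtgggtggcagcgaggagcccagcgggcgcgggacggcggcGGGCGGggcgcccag
The stretch is 72.8% G or C and holds 25 CG dinucleotides, against medians of 52.4% and 6 over the 32851 RefSeq stretches of the same length. GGGCGG occurred 4 times in it, and 32.7% of those stretches hold this motif at least once. The downstream start is not shown, since the bases before it lie within an annotated exon.

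Lhx6 and Lhx8 had their highest means in the jaw prominences. Both are expressed in the mesenchyme of the maxillary and mandibular arch, and in ventral forebrain Lhx6 is known for cortical interneurons and Lhx8 for cholinergic neurons. Lhx6 lies on the minus strand at chr2:36081953-36105408, and Lhx8 on the minus strand at chr3:154306294-154330560. Lhx6 levels in the MXP libraries were 26.2, 36.2, 28.8, 39.5 and 40.4 FPKM. The lowest, median and highest levels were 12.7, 16.7 and 22.6 FPKM in MNP, 0.594, 12.9 and 20.3 FPKM in vB, 0.447, 0.823 and 1.91 FPKM in FNP, 0.335, 0.772 and 1.62 FPKM in dB and 0.210, 0.308 and 0.913 FPKM in limb. Every MXP library was above every MNP library, but the difference of 0.95 ± 0.39 did not pass the test (adjusted p = 0.41 in limma). Lhx6 in vB against MNP was not called (-0.97 ± 0.37, adjusted p = 0.0329 in limma), being under the fold of 2, and the ranges overlapped. Both jaw prominences exceeded FNP, with a difference of -4.13 ± 0.39 for FNP against MXP (adjusted p = 2.05e-09 in limma) and -3.18 ± 0.37 for FNP against MNP (adjusted p = 1.04e-07).

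Lhx8 reached still higher levels, 53.1, 56.6, 56.2, 77.2 and 76.6 FPKM in the MXP libraries. Its lowest, median and highest levels were 38.0, 49.8 and 54.7 FPKM in MNP, 6.34, 9.92 and 12.4 FPKM in FNP and 0.488, 21.3 and 26.7 FPKM in vB. In dB they were 0, 0.377 and 2.14 FPKM. In limb 5 libraries held no more than 0.0744 FPKM and replicate 1 held 0.702 FPKM. Lhx8 was thus at 6.34 FPKM or more in every library of the 3 prominences, with MXP and MNP overlapping (0.38 ± 0.45, adjusted p = 1 in limma) and FNP below both. The difference of FNP against MXP was -2.59 ± 0.45 (adjusted p = 0.000128) and against MNP -2.21 ± 0.43 (adjusted p = 0.000401). Within replicates 4 to 6 these were -3.07 (adjusted p = 0.132) and -2.41 (adjusted p = 0.153).

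Both genes were called higher in vB than in dB, with a dB against vB difference of -2.30 ± 0.37 for Lhx6 (adjusted p = 8.55e-05 in limma) and -3.05 ± 0.43 for Lhx8 (adjusted p = 8.72e-06). In vB they varied together. Lhx6 stood at 11.3, 20.3, 17.6, 0.594, 3.97 and 14.5 FPKM and Lhx8 at 17.9, 25.7, 24.7, 0.488, 6.76 and 26.7 FPKM in replicates 1 to 6. Nkx2-1, a factor of the ventral forebrain, stood at 96.2, 102, 93.8, 6.93, 39.4 and 97.9 FPKM in the same libraries. Replicates 4 and 5 were thus lowest for all 3 genes. Within replicates 4 to 6 alone the calls against dB were lost (Lhx6 -1.51, adjusted p = 0.615, and Lhx8 -2.19, adjusted p = 0.502). Without the 5 libraries these differences were -3.30 (adjusted p = 8.05e-13) and -4.12 (adjusted p = 1.23e-12). Lhx8 in vB against FNP, at 0.25 ± 0.43 (adjusted p = 0.681) with all libraries, was then called (1.31, adjusted p = 0.000254), and that of Lhx6 went from 2.21 to 3.44 (adjusted p = 8.55e-14). Leaving out those libraries also moved vB nearer to the jaws. Lhx6 in vB against MXP went from -1.92 (adjusted p = 0.00013) to -0.92 (adjusted p = 0.000443), and Lhx8 in vB against MNP from -1.96 (adjusted p = 0.000291) to -0.89 (adjusted p = 0.00481), both then under the fold of 2. Lhx8 in vB against MXP went from -2.34 to -1.26 (adjusted p = 0.000208) and was still called. Within replicates 1 to 3 the Lhx6 difference was -0.87 (adjusted p = 0.00607).

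The pair was balanced differently in the tissues that held it. Lhx8 exceeded Lhx6 by a ratio of 11.5 ± 4.78 (SD, n = 6) in FNP, 2.89 ± 0.57 (SD, n = 6) in MNP, 1.88 ± 0.18 (SD, n = 5) in MXP and 1.44 ± 0.37 (SD, n = 6) in vB. The balance differed between MXP and MNP by 0.57 (exact permutation test, two-sided, adjusted p = 0.00726) although neither gene was called between them. It differed between FNP and MXP by -1.54 and between vB and FNP by 1.96 (exact permutation adjusted p = 0.00417 for each). The ratio in FNP was 14.5 ± 0.78 (SD, n = 4) without the 5 libraries, and these differences were then -1.80 and 2.14 (exact permutation adjusted p = 0.0197 and 0.0354). Over the 35 libraries, r between Lhx6 and Lhx8 was 0.907. For every member, the closest genes named here were sought outside the members. Those closest to Lhx6 were AI606473 (r = 0.887), Dlx1 (0.843) and Gpr17 (0.834). Those closest to Lhx8 included AI606473 (0.980) and Zmat4 (0.836).

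AI606473, the gene outside the members closest to both, is a noncoding gene whose annotated start faces that of Lhx8. It occupies chr3:154330821-154334687 on the plus strand, and 260 bases separate its 5′ end from that of Lhx8 in the deposited gene models. Its mean level was 40.7 ± 5.88 FPKM (SD, n = 5) in MXP, 27.3 ± 7.67 in MNP, 5.67 ± 2.46 in FNP and 5.02 ± 3.28 in vB (SD, n = 6 each). The highest library held 0.463 FPKM in dB and 0.153 FPKM in limb. Its means were thus close in FNP and vB, where the means of Lhx8 were 9.86 ± 2.06 and 17.0 ± 11 FPKM (SD, n = 6 each). The sources used here do not state whether the libraries keep the strand. Lhx3 and Lhx5 overlap annotated antisense genes and Lhx6 a small RNA gene on its own strand, and reads from these cannot be told apart from those of the members. The bases between these divergent genes that lie outside annotated exons are shown because the levels of both genes moved together across the tissues. They are chr3:154330660-154330810 (GRCm38.p6 from RefSeq, minus strand, 5′ to 3′ toward Lhx8), and a search was made on either strand for the homeodomain motif TAATTA and the promoter motif TATAAA. The motif CCAAT was also searched, as was GGGCGG, and any match would be in capitals.
Lhx8 to AI606473 interval: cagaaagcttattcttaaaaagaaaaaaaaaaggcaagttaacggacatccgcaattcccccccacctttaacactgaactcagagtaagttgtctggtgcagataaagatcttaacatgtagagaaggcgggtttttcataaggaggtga
None of these motifs is in the 151 bases, of which 39.7% are G or C. Among the 32851 RefSeq stretches, which are longer at 250 bases, the motif TAATTA is held by 4.84% and TATAAA by 12.4%. CCAAT is held by 33.8%.

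**Figure D3:**
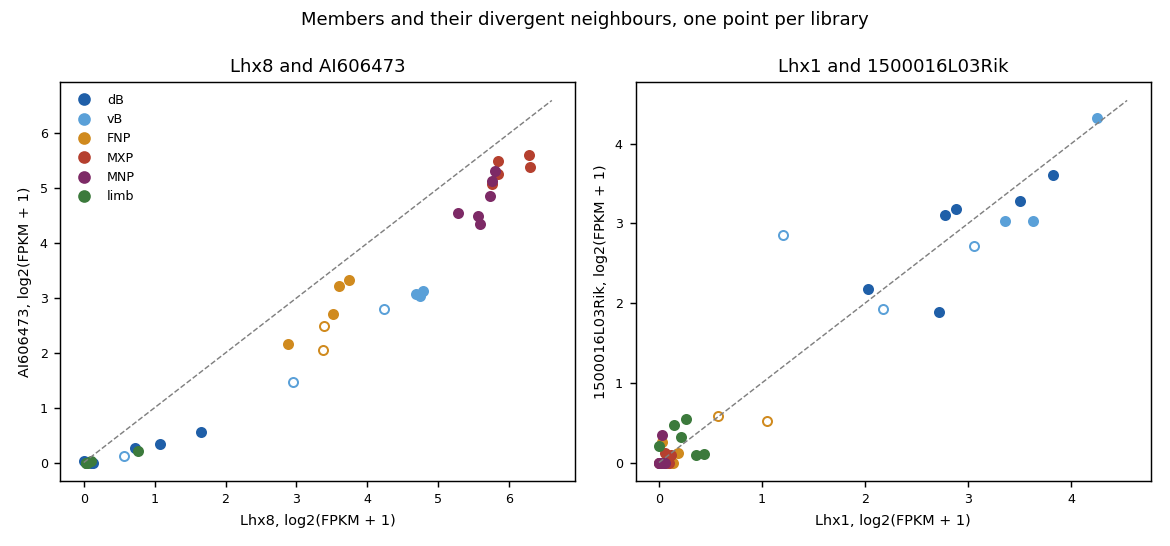
Lhx8 against AI606473 (left) and Lhx1 against 1500016L03Rik (right), each as log2(FPKM + 1), with 1 point per library coloured by tissue and a dashed line at equal levels. Open points are the 5 libraries that stand apart. All libraries above 2 for Lhx8 lie below the line, with vB farther below than MXP, whereas Lhx1 and its neighbour lie along the line apart from vB replicate 4, far above it.

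Transcripts of Lhx6 also began at a pair of sites, 1348 bases apart, and the jaws differed from vB in which was used. The upstream start gave 66.9% ± 13 (SD, n = 5) of Lhx6 FPKM in MXP and 72.8% ± 15.8 (SD, n = 6) in MNP. In vB it gave 35.4% ± 10.4 (SD, n = 5, with replicate 4 left out for holding under 1 FPKM). The MXP libraries ranged from 52.9% to 83.8%, the MNP libraries from 49.2% to 92.2% and the vB libraries from 24.1% to 46.1%, so that vB did not overlap the jaws. The difference was -31.5 percentage points between vB and MXP (exact permutation test, two-sided, adjusted p = 0.0143) and -37.4 points between vB and MNP (exact permutation adjusted p = 0.00974). MXP and MNP differed by less than their spread (exact permutation adjusted p = 0.526). Without the 5 libraries the vB share was 29.7%, and both differences from the jaws were still past the threshold (exact permutation adjusted p = 0.0321 and 0.0268). The bases before each start are shown because the tissues divide between them. Both stretches are from RefSeq (GRCm38.p6, minus strand, 5′ to 3′), at chr2:36105409-36105658 for the upstream start and chr2:36104061-36104310 for the downstream start, with capitals on CCAAT and GGGCGG on either strand.
Lhx6 upstream start: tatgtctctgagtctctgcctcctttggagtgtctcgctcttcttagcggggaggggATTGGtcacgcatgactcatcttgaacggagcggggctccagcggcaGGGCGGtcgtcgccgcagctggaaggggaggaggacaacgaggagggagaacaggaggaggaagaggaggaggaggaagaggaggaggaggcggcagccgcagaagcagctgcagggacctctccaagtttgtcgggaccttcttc
Lhx6 downstream start: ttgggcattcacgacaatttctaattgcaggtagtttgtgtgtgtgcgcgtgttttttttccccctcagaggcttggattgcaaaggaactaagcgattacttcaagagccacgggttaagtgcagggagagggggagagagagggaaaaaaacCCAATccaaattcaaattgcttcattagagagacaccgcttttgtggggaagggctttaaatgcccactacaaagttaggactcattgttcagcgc
The upstream stretch is 61.6% G or C with 14 CG dinucleotides, and the downstream stretch is 46.0% G or C with 7. Each holds CCAAT once on one strand or the other, and the upstream stretch also holds GGGCGG.

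**Figure D4:**
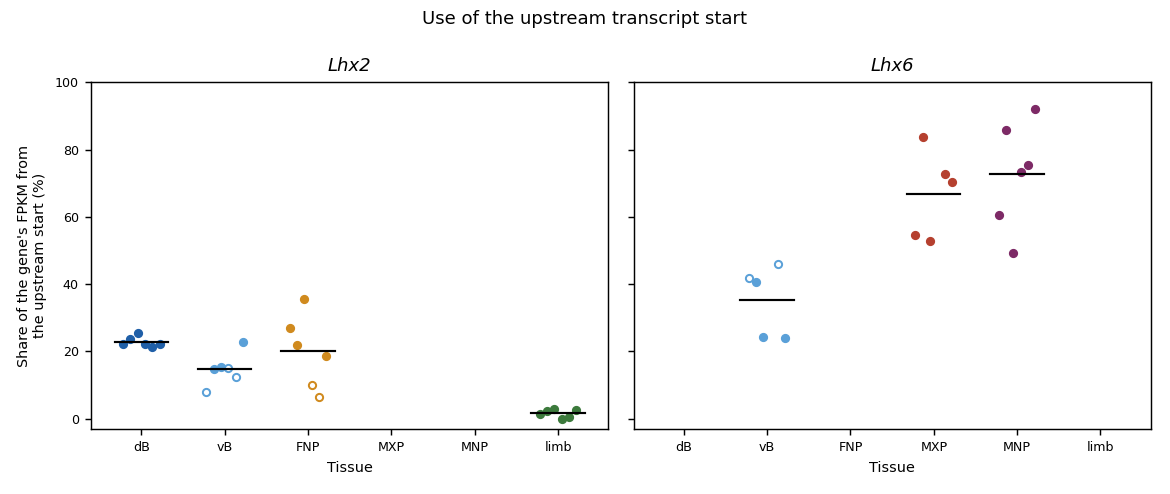
Share of the FPKM of Lhx2 (left) and Lhx6 (right) from the upstream transcript start, in percent, by tissue, with 1 point per library and a bar at the mean. Tissues with fewer than 5 libraries at 1 FPKM or more are left out. The 6 limb libraries of Lhx2 lie at or under 2.74%, and the 5 vB libraries of Lhx6 lie below all MXP and MNP libraries.

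Isl1 and Isl2 are known as factors of motor and sensory neurons, and Isl1 also of striatal neurons and of progenitors outside the nervous system. Isl1 lies on the minus strand at chr13:116298270-116309688, and Isl2 on the plus strand at chr9:55541149-55546178. Isl1 was highest in vB, at 17.1, 32.1, 28.9, 8.25, 9.60 and 32 FPKM in replicates 1 to 6. The lowest, median and highest levels were 4.30, 6.09 and 6.79 FPKM in FNP, 2.22, 4.84 and 7.41 FPKM in MNP, 1.19, 2.46 and 5.66 FPKM in dB and 1.92, 2.42 and 3.33 FPKM in limb. The MXP libraries held 7.29, 2.46, 1.68, 3.54 and 1.43 FPKM. Every vB library was above every library of the other 5 tissues, and the 5 calls of Isl1 were those between vB and each of them. The log2 difference was -2.39 ± 0.31 for dB against vB (adjusted p = 2.65e-06 in limma) and 1.52 ± 0.31 for vB against FNP (adjusted p = 0.000148). Among the other tissues no difference was called. FNP against limb (0.96 ± 0.31, adjusted p = 0.0331 in limma) and dB against FNP (-0.87 ± 0.31, adjusted p = 0.0296) missed only the fold of 2. Both were called at a pseudocount of 0.1, and FNP against limb also after rescaling. FNP against MXP was called without MXP replicate 1 (1.11, adjusted p = 0.032). Within replicates 4 to 6 the differences were -2.07 for dB against vB (adjusted p = 0.124), 1.17 for vB against FNP (0.0967) and 1.12 for vB against MNP (0.1), past the fold of 2 but not the threshold on p. Without the 5 libraries dB against vB was -3.09 and vB against FNP 2.27, both called. The genes closest to Isl1 were Gbx1 (r = 0.849), Arl4d (0.835) and E030019B13Rik (0.830).

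Isl2 was instead highest in the face. Its lowest, median and highest levels were 5.11, 7.99 and 9.16 FPKM in FNP, 1.31, 5.43 and 8.12 FPKM in MNP, 1.2, 1.35 and 1.87 FPKM in limb and 0.211, 0.411 and 0.957 FPKM in dB. MXP held 4.17 FPKM in replicate 1 and 1.63, 1.57, 1.78 and 1.31 FPKM in replicates 2, 3, 5 and 6. Isl1 was also highest in MXP replicate 1. The sensory neuron genes Pou4f1 and Prph, chosen after their values were seen, stood at 1.86 and 2.27 FPKM in that library and at no more than 0.361 and 0.319 FPKM in the other MXP libraries, and their part in the Isl1 and Isl2 levels was not tested. FNP stood above MXP by 1.51 ± 0.32 (adjusted p = 0.00155 in limma), a call that was lost within replicates 1 to 3 (1.46, adjusted p = 0.0777) and within replicates 4 to 6 (1.64, adjusted p = 0.0662). FNP stood above limb by 1.77 ± 0.30 (adjusted p = 4.82e-05), and MNP above limb by 1.02 ± 0.30 (adjusted p = 0.0301). The MNP call was lost under quantile normalization (adjusted p = 0.0741), at a pseudocount of 0.1 (0.143) and within replicates 1 to 3 (0.762). Neighbouring tissues in the order FNP, MNP, MXP, limb, vB and dB overlapped throughout. The genes closest to Isl2 were Gdf6 (r = 0.904), Rasef (0.882) and Krt18 (0.877).

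In vB, Isl2 fell into separate sets of libraries. It stood at 1.97, 2.33 and 2.20 FPKM in replicates 1, 4 and 5, and at 0.142, 0.167 and 0.179 FPKM in replicates 2, 3 and 6. The first 3 are the vB libraries in which the mesenchyme genes summed to 141 FPKM or more. Prph stood at 1.32, 1.06 and 1.37 FPKM in them and at no more than 0.193 FPKM in the other vB libraries, whereas Pou4f1 overlapped between these sets. Isl2 was called lower in vB than in FNP (-2.14 ± 0.30, adjusted p = 5.87e-07 in limma) and MNP (-1.39 ± 0.30, adjusted p = 0.000313). Without the 5 libraries these differences were -2.93 (adjusted p = 2.25e-08) and -2.11 (adjusted p = 1.64e-06), and Isl2 was then also called lower in vB than in MXP (-1.35, adjusted p = 0.000942) and limb (-1.09, adjusted p = 0.00435).

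Isl1 and Isl2 were thus not expressed in proportion. The ratio of Isl1 to Isl2 ran from 3.55 to 227 over the vB libraries, and was 1.74 ± 0.34 (SD, n = 6) in limb, 1.48 ± 0.40 (SD, n = 5) in MXP, 1.27 ± 0.63 in MNP and 0.82 ± 0.24 in FNP (SD, n = 6 each). The balance in vB exceeded that in FNP by 3.66 and that in limb by 2.85 (exact permutation test, two-sided, adjusted p = 0.00417 for each), and that in dB by 2.03 (exact permutation adjusted p = 0.0247). FNP was lower than MXP (-0.68, exact permutation adjusted p = 0.0247) and lower than limb (-0.81, adjusted p = 0.00417, exact permutation), whereas MXP and MNP did not differ beyond their spread (0.25, exact permutation adjusted p = 0.304). The vB ratio was 193 ± 29.4 (SD, n = 3) without the 5 libraries. The vB balance then exceeded that of FNP by 5.21 (exact permutation adjusted p = 0.0354) and that of limb by 4.27 (exact permutation adjusted p = 0.02), and dB against vB was -3.46 (exact permutation adjusted p = 0.02). Over all pairs, 44 of 52 balance tests were past the threshold. A test was made where any mean of the genes in the tissues compared reached 1 FPKM. A pair with both genes near 0 in a tissue has a balance near 0 there by construction. Some of the 44 thus set an expressed pair against a nearly absent one, such as Lhx1 and Lhx5 in vB against MNP (balance -1.21 against -0.02).

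Lhx3 and Lhx4, which act in pituitary and motor neuron development, lay near 0. Lhx3 lies on the minus strand at chr2:26200212-26208289, and Lhx4 on the minus strand at chr1:155701694-155742027. Lhx4 reached 0.390 FPKM in its highest library, in vB, and was listed at 0 in all 5 MXP libraries. Lhx3 held at most 0.230 FPKM in 34 libraries and 1.49 FPKM in vB replicate 1. In that library the pituitary primordium genes Hesx1 and Cga stood at 1.57 and 1.26 FPKM, against at most 0.259 and 0.145 FPKM in the other 5 vB libraries. Neither gene had enough signal to order the tissues.

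The same family has 2 further members in the tables outside these 10, Lmx1a and Lmx1b. Lmx1b, the factor of dorsal limb identity, stood at 20.3, 16.5, 20.6, 3.70, 24.8 and 24.4 FPKM in limb replicates 1 to 6 and at no more than 5.05 FPKM in any library of another tissue. It was called higher in limb than in each of the other tissues, for example than in FNP (FNP against limb -3.05 ± 0.31, adjusted p = 2.01e-09 in limma). Lmx1a, a factor of the roof plate and of midbrain dopamine neurons, had means of 6.04 ± 1.81 FPKM in dB and 6.72 ± 2.35 FPKM in vB (SD, n = 6 each) and at most 2.82 FPKM elsewhere. It was called in 8 pairs, each between a brain tissue and another tissue. In limb, 3 genes of the family therefore exceeded 10 FPKM on average, Lhx9, Lhx2 and Lmx1b. In MXP and MNP these were Lhx6 and Lhx8, in vB Lhx2, Lhx5, Lhx6, Lhx8 and Isl1, in dB Lhx2, Lhx5 and Lhx9, and in FNP Lhx2.

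The cofactors of these factors varied less. Ldb1, the adaptor that bridges LIM domains, averaged between 120 and 140 FPKM in every tissue and was called in 0 of 15 pairs (0 also at an unadjusted p under 0.05 in limma). Ssbp2 and Ssbp3, which stabilise Ldb proteins, were likewise called in 0 pairs, with 0 at an unadjusted p under 0.05. Ssbp4 and Rlim, the ubiquitin ligase that acts on Ldb proteins, were called in 0 pairs, with 5 and 8 pairs at an unadjusted p under 0.05 and no difference above 0.83 on the log2 scale. In vB replicate 4 Ldb1 and Ssbp3 were at 29.2 and 30.9 FPKM, the lowest of any library. Replicate 4 was also the lowest library for both genes in dB (75.6 and 66.5 FPKM) and limb (77.7 and 73.0 FPKM). It was not the lowest for either gene in FNP or MNP. The dB and limb libraries are not among the 5 that stood apart. Ldb2 was the exception among the cofactors, at 6.08 ± 0.66 FPKM in dB and 5.19 ± 2.24 in vB, against 14.3 ± 4.53 in FNP, 17.8 ± 3.96 in MNP, 15.2 ± 2.43 in limb (SD, n = 6 each) and 14.9 ± 2.00 in MXP (SD, n = 5). Its 8 calls were all between a brain tissue and another tissue.

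The LIM-only proteins Lmo1 to Lmo4 hold LIM domains without a homeodomain and bind the same Ldb cofactors. All 4 were called in some pair. Lmo3 separated the brain, with means of 12.0 ± 2.87 FPKM in dB and 15.8 ± 4.58 in vB and at most 1.95 FPKM in any other library. Lmo1 was highest in vB at 73.8 ± 31.4 FPKM and lowest in MNP at 3.49 ± 1.26 FPKM, a log2 difference of 3.95 ± 0.32 (adjusted p = 5.72e-12 in limma). Lmo4 ran the other way, at 124 ± 7.21 FPKM in MNP against 36.4 ± 7.54 FPKM in dB (dB against MNP -1.77 ± 0.21, adjusted p = 2.61e-08). Lmo2 shared its high tissues with Lhx9, at 21.5 ± 3.61 FPKM in limb and 21.1 ± 3.36 in dB. It was called higher in each of them than in MXP and MNP, for example in dB against MNP (1.44 ± 0.11, adjusted p = 8.12e-13). Counted together, 5 of the 10 cofactor and LIM-only genes were called in at least 1 pair, in 33 of 150 comparisons, where 21.3% of all genes were called in at least 1 pair and 1.03% to 13.6% in a single pair.

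**Figure D5:**
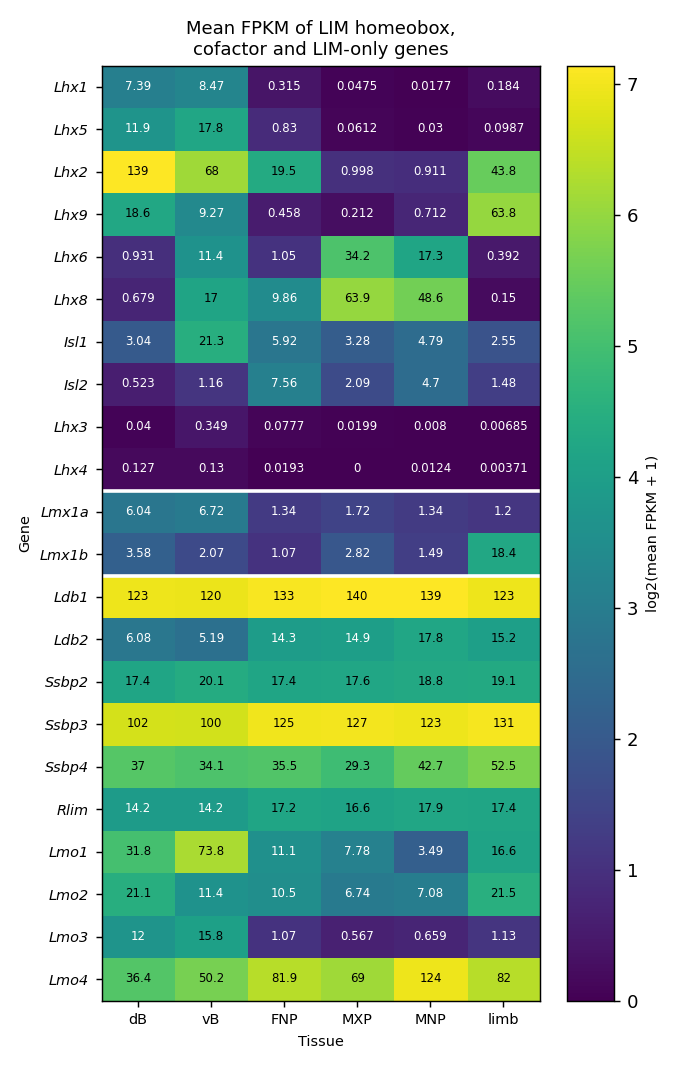
Mean FPKM by tissue (6 libraries, 5 in MXP) of the 10 LIM homeobox genes, of Lmx1a and Lmx1b, and of 10 cofactor and LIM-only genes, with the mean printed in each cell and the colour giving log2(mean FPKM + 1). Ldb1 and Ssbp3 lie at or above 100 FPKM in every tissue, whereas the means of Lhx2, Lhx5, Lhx6, Lhx8 and Lhx9 run from under 1 to over 10 FPKM between tissues.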

How the data were processed

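The authors sequenced polyA RNA with paired 75-base reads and deposited 1 Cufflinks table per library with mm10 gene models, holding FPKM and a coverage signal for each transcript. The submitters' notes also name Bowtie2 and DESeq2, and the aligner behind the Cufflinks tables is not given in the sources used here. Each table held 59120 transcripts, of which 65 with a broken gene name were left out. The deposited coverage was used only for depth: it came to between 2.71 and 5.52 per FPKM over the 35 libraries. Libraries with replicate number 1 held 19.1% to 39.2% of FPKM in transcripts under 200 bases, the others at most 10.3%. No read counts were used, so that no counting interval is given, and 16 genes with a failed estimate in some library, none of them a member, were listed at 0 there.

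FPKM were summed per gene symbol. Genes whose mean reached 1 FPKM in any tissue were fitted in limma 3.58.1 (R 4.3.3, trend and robust options) on log2(FPKM + 1), with 1 mean per tissue and all 35 libraries. Paralogue balance and start use were tested by exact permutation of libraries in Python 3.11.15 (pandas 2.3.3, NumPy 2.4.6), with Benjamini-Hochberg adjustment. Shares were taken in libraries with at least 1 FPKM of the gene. The tests of start use were chosen after their values were seen. The scripts were tested on simulated data. The study's methods describe independent biological replicates. Named genes were the members, Lmx1a, Lmx1b, the cofactor and LIM-only genes, genes within 1 kb of a member and marker genes beside a result. Also named were the 3 tested genes outside the members with the highest Pearson r to each member. The genes within 1 kb were added after values were seen. A gene close to Lhx8 and 3 marker lists are not reported here. The members and lists were chosen with earlier results of these data known. Alternatives were another pseudocount, filter, normalization, adjustment and threshold, blocks for replicate number and sequencing run, replicate sets, and libraries left out. Promoters came from RefSeq (GRCm38.p6), which matched 9 of the 10 members.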

Additional observations from a re-analysis of the deposited data

Results flagged for a closer look

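Of 60 groups of a member in a tissue, 7 held a library whose gap to the nearest other library took up most of the range of its group. Chance gives about 1 in 20 groups if values spread normally, but several flagged groups lie near 0. Where all other libraries are at 0, any value above 0 is flagged, so the 7 cannot be weighed against that share. Lhx3 stood at 1.49 FPKM in vB replicate 1, with the next library at 0.230 FPKM. Isl2 stood at 4.17 FPKM in MXP replicate 1, with the next library at 1.78 FPKM. In limb replicate 1, Lhx5 stood at 0.462 FPKM, Lhx6 at 0.913 FPKM and Lhx8 at 0.702 FPKM, against at most 0.0518, 0.366 and 0.0744 FPKM in the other limb libraries. The neural progenitor genes summed to 23.9 FPKM in limb replicate 1 and to at most 11.3 FPKM in the other limb libraries. Their part in these values was not tested. In limb, Lhx3 stood at 0.0411 FPKM in replicate 2 and Lhx4 at 0.0223 FPKM in replicate 5, and each was listed at 0 in the other 5 libraries.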

How the results depend on the processing

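Each of the 74 member calls was recomputed under 14 alternatives, which do not include the other filter, adjustment and threshold. Of these 1036 values, 1008 were still called, 28 were not, and 0 changed sign. In all, 58 calls were kept throughout these 14. Replicates 4 to 6 alone lost 13 calls and replicates 1 to 3 alone 4. A pseudocount of 0.1 lost 3, leaving out the 5 libraries 3, and rescaling over transcripts of at least 200 bases 2. The calls that were lost are named beside their results, except Lhx6 in vB against FNP, which within replicates 4 to 6 was 1.16 (adjusted p = 0.174). The cause was not tested. Rescaling moved the median of all genes by up to 0.12 on the log2 scale. The replicate block changed none of the 74 calls and gave 76 in all, with Lhx2 in dB against vB (1.1) and Isl2 in dB against MXP (-1.07) gained. Libraries with the same number correlated in their deviations from tissue means (median r 0.34 over 85 pairs, lowest 0.0078), and 32 of 35 were closest to their own number, but nothing in the labels says what a number marks, so the samples were not treated as paired. Number went largely with sequencing run. All replicate 1 libraries shared a run, and replicates 4 to 6 came from other runs than replicates 1 to 3. The part of the run in these correlations was not tested. Of the 44 balance differences, 0 passed within replicates 1 to 3 alone and 0 within replicates 4 to 6 alone, where the smallest possible p is 0.1, and 0 passed in the paired exact test with the replicate block, where it is 0.03125. A pseudocount of 0.1 gave 34, and leaving out an MXP library 41 to 42. Of the 6 differences in start use, 0 passed within replicates 1 to 3 alone and 0 within replicates 4 to 6 alone, for the same reason. Without a count table, the counting error of genes under 1 FPKM, such as Lhx3 and Lhx4, is unknown.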
